A study of Mus musculus with 16 samples.

Results

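Livers labelled as coming from CYP7A1 transgenic (Tg) mice on a Western diet were set against livers labelled wild type (WT) on standard chow, the pair of groups that differ in both genotype and diet. The comparison asks how far the transgenic liver on the diet lies from the unchallenged wild type liver. The arrays were chosen by their titles alone: 4 of Tg livers on the Western diet and 4 of WT livers on chow, 8 of the 16 arrays in all. The 4 arrays of WT livers on the Western diet and the 4 of Tg livers on chow shared the fit and are given only beside the main comparison. Each array held liver RNA of 1 mouse, so the spread within a group includes the spread between animals.

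Per the labels, all 16 mice were male C57BL/6 mice with a stated age of 6 months, housed singly, and the Tg mice were littermates of the WT mice. Diets began at 12 to 14 weeks of age and lasted 4 months. Fat made up 42% of calories in the Western diet, with cholesterol at 0.2%. The mice were fasted for about 16 h before collection. From each liver, 250 ng of total RNA was copied and labelled with biotin by an Illumina kit. No source used here names the transgene's promoter, the species of its coding sequence or the founder line. Within this comparison alone, the part of genotype and the part of diet cannot be told apart. Other contrasts of the same fit are given next to it for some genes and lists, but not for all.

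Cyp7a1, cholesterol 7-alpha-hydroxylase, carries out the first and rate-limiting step of the classical pathway that turns cholesterol into bile acids. Bile acids returning from the gut lower its transcription through the nuclear receptor FXR in the liver and through the intestinal hormone FGF15. Cholesterol synthesis is set by SREBP2, a membrane-bound transcription factor that the escort protein Scap carries to the Golgi for release when sterols run low, while Insig proteins hold it back when sterols are plentiful.

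The values were log2 signals from the authors' deposited value table, without background subtraction, so folds are compressed for genes near the bottom of the range. Of its rows, the upper 50% by mean signal were kept (above a log2 level of 6.246, called the filter level here), which left 7783 genes. The scanner's mean signal ran from 354.9 to 370 on the 4 Tg Western arrays, against 400.8 to 446.6 on the 4 WT chow arrays, and these ranges do not overlap. Markers of hepatocytes, the main liver cell, were present at like levels: none of the 12 tested was called, and Trf (transferrin) read 14.78 to 14.83 in Tg Western livers, against 14.68 to 14.83 in WT chow livers. The files used here name no slide, scan date or other batch, so a batch effect was not tested. In whole liver, fewer cells of a type and less RNA per cell cannot be told apart.

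Between Tg Western and WT chow livers, 1006 of 7783 genes (12.9%) were called by limma at a Benjamini-Hochberg adjusted p under 0.05. Of these, 503 (6.46%) were higher and 503 (6.46%) lower in Tg Western livers. At least a 2-fold change was seen for 74 of the genes that rose (0.951% of all tested) and 52 of those that fell (0.668%), and 2104 genes (27%) had an unadjusted p under 0.05. All 4 arrays of one group lay beyond all 4 of the other for 1275 genes (16.4%), 603 higher (7.75%) and 672 lower (8.63%). The median log2 difference over all genes was -0.02, and 90% of genes lay between -0.35 and 0.41 (5th and 95th percentiles). When arrays were scaled to a common median instead, 354 genes were called higher and 938 lower, so the even split of directions depends on the scaling. Without Tg Western replicate 2 the count of called genes was 665, and without WT chow replicate 3 it was 666.

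**Figure D1:**
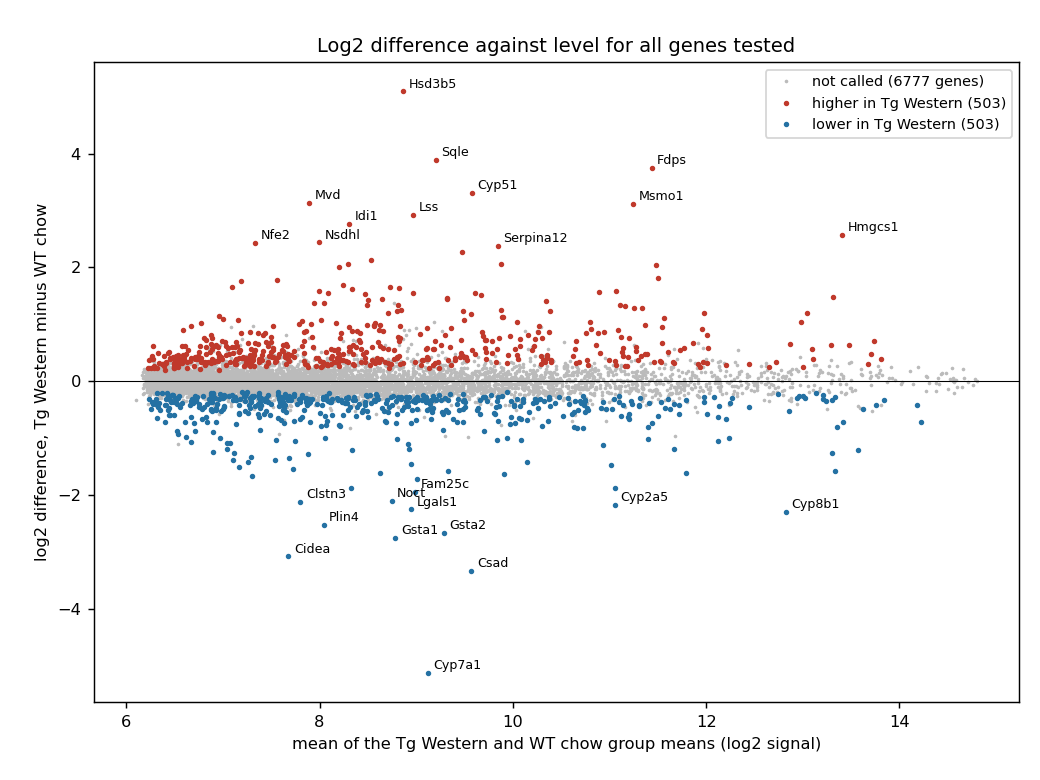
Log2 difference between Tg Western and WT chow livers (vertical axis) against the mean log2 level of both groups (horizontal axis) for 7783 genes. Red points (503) were called higher and blue points (503) lower in Tg Western livers, and the 12 largest changes in each direction are named, with Hsd3b5 at the top and Cyp7a1 at the bottom.

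The distance of each liver from the WT chow mean was taken as the root mean square log2 difference over the 7783 genes. It was 0.36, 0.37, 0.34 and 0.34 for the 4 Tg Western livers (mean 0.354 ± 0.016, SD, n = 4). The WT Western livers averaged 0.347 ± 0.036 and the Tg chow livers 0.326 ± 0.045 (SD, n = 4 each). Each WT chow liver, set against the other 3, gave 0.31, 0.22, 0.18 and 0.22 (mean 0.233 ± 0.054, SD, n = 4). By this measure the mean distance of the Tg Western livers was close to those of the livers with only the diet or only the transgene. All 4 Tg Western livers were farther than any WT chow liver was from its own group. Genes called against WT chow numbered 1006 in Tg Western, 1511 in WT Western and 778 in Tg chow livers. The Tg Western distance exceeded the WT Western one by 0.0069 (two-sided exact permutation test over 70 splits, p = 0.8571, Benjamini-Hochberg adjusted p = 0.8571) and the Tg chow one by 0.028 (p = 0.2571, adjusted p = 0.5143). The smallest p these 4 against 4 splits allow is 0.02857, and a large p here does not show that distances are equal. The sign of the difference from WT Western livers is not settled: it was -0.0108 without WT Western replicate 4 and -0.0091 without WT chow replicate 1. Cyp7a1 with the 15 tested genes of cholesterol synthesis, 16 genes in all, held 15.9% of the summed squared difference between the group means, and the 50 genes of largest difference held 36.9%.

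**Figure D2:**
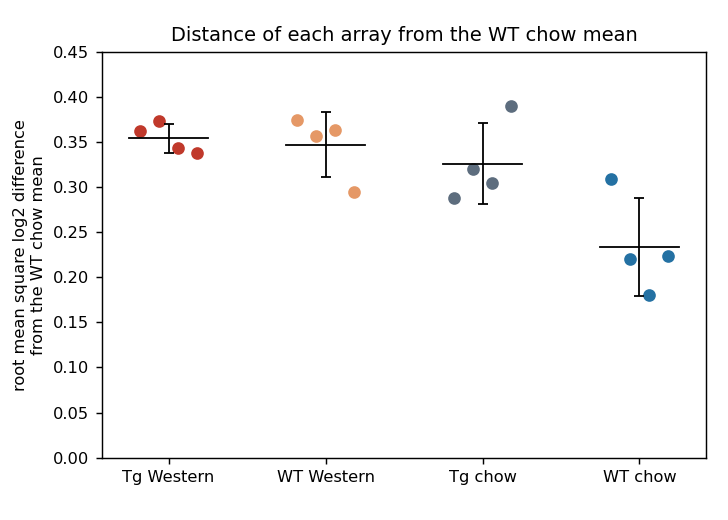
Root mean square log2 difference of each of 16 livers from the WT chow mean, with group mean and SD (4 arrays per group; each WT chow array is set against the other 3). The Tg Western, WT Western and Tg chow groups overlap, and all 4 Tg Western livers lie above all 4 WT chow livers.

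Cyp7a1, the gene named in the genotype, fell the most of all genes tested. It read 6.48, 6.24, 6.20 and 7.33 in Tg Western livers, against 11.68, 12.27, 11.49 and 11.30 in WT chow livers. The groups were far apart, and 2 of the Tg Western values lay below the filter level. The log2 difference was -5.12 (SE 0.42, 34.8-fold lower, limma adjusted p = 3.723e-07), a fold compressed by the background. Tg livers on chow were also low, with a mean of 7.04, while WT Western livers averaged 11.19. All 8 arrays labelled Tg thus lay below all 8 labelled WT for this probe. Neither the probe's sequence nor the transgene's species was stated, so whether the probe reads the transgene's own transcript was not tested. Every direction below rests on the genotype labels as given.

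**Figure D3:**
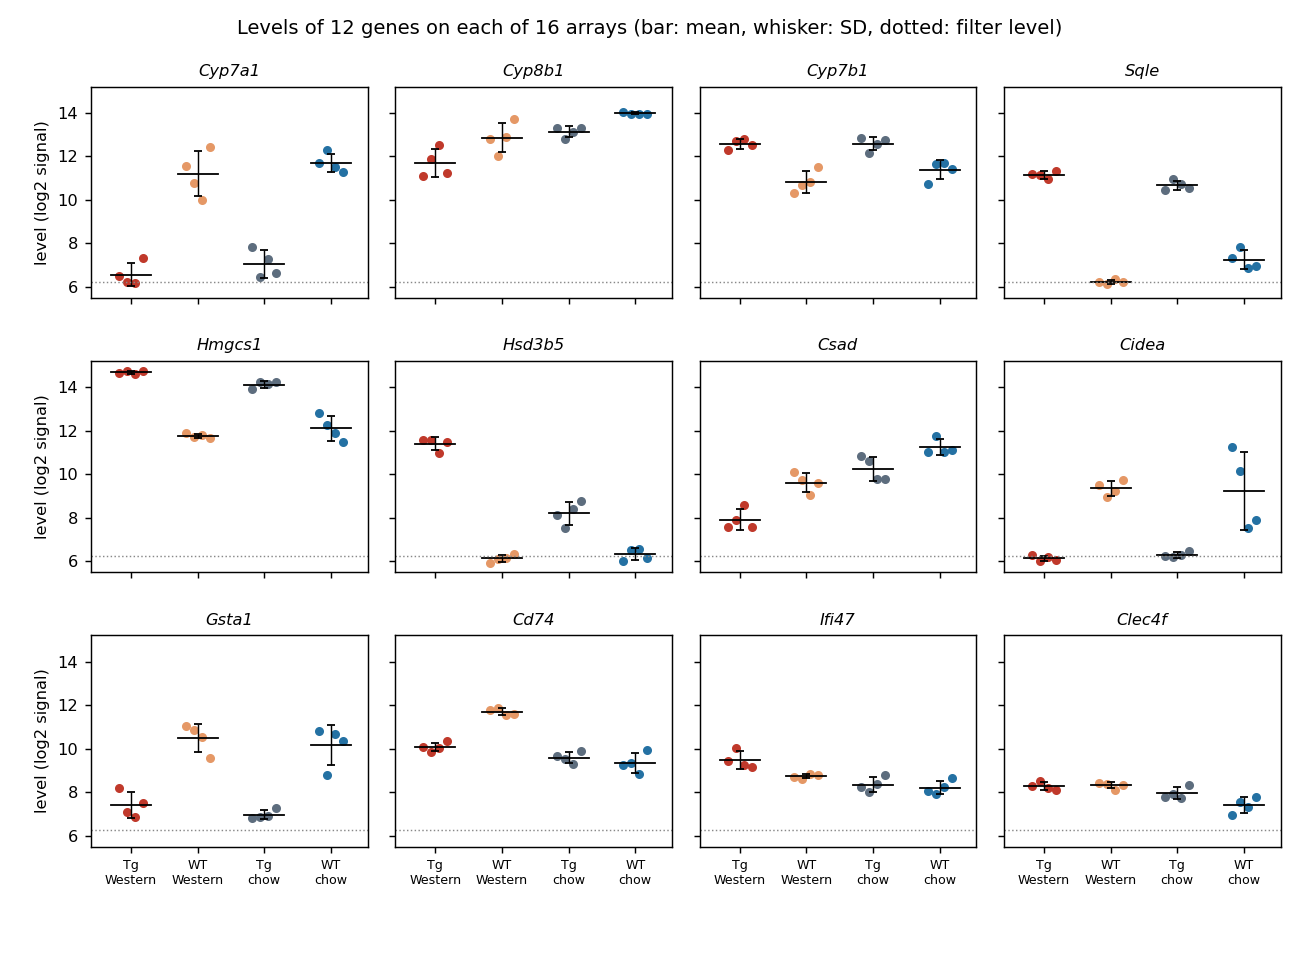
Log2 level of 12 genes on each of 16 arrays (points), with group mean (bar) and SD (whisker) and the filter level (dotted line). Cyp7a1 is low in both Tg groups, Sqle and Hmgcs1 are high in both, Hsd3b5 is highest in Tg Western livers, and Cd74 is highest in WT Western livers.

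Other steps of bile acid synthesis moved in both directions. Of the 18 listed genes of synthesis and conjugation, 16 passed the filter: 2 rose, 4 fell and 10 were not called. Among all genes, 6.46% rose and 6.46% fell. The list's median log2 difference was -0.08. Cyp8b1, the sterol 12-alpha-hydroxylase that directs synthesis to cholic acid, read 11.09, 11.88, 12.51 and 11.25 in Tg Western livers, against 14.05, 13.96, 13.96 and 13.94 in WT chow livers. Every Tg Western value lay at least 1 log2 unit below the WT chow values. Its log2 difference was -2.30 (SE 0.30, adjusted p = 6.522e-05), next to -1.11 in WT Western and -0.85 in Tg chow livers, each against WT chow. Of those 2 smaller differences, the first was called (adjusted p = 0.01443) and the second was not (adjusted p = 0.07769).

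Cyp7b1, the oxysterol hydroxylase of the alternative pathway, rose. It read 12.30, 12.71, 12.80 and 12.52 in Tg Western livers, against 10.75, 11.67, 11.70 and 11.42 in WT chow livers, with no overlap (log2 difference 1.20, SE 0.24, adjusted p = 0.003071). Cyp2c70, which makes muricholic acids in mice, read 12.82, 11.92, 12.69 and 12.19 in Tg Western livers, against 10.67, 10.40, 10.79 and 10.52 in WT chow livers. Its log2 difference of 1.81 (SE 0.21, adjusted p = 2.294e-05) stood beside 2.22 in WT Western livers and 0.54 in Tg chow livers. Acox2 and Hsd17b4, peroxisomal enzymes of side chain shortening, fell by 0.46 and 0.30 on the log2 scale (adjusted p = 0.004097 and 0.0396), and Hsd17b4 lost its call in 9 of the alternative settings. Cyp27a1, which opens the alternative pathway, was lower by a log2 difference of -0.28 (95% interval -0.51 to -0.05) and was not called at an adjusted p of 0.09952. Baat and Slc27a5, which join bile acids to taurine or glycine, gave log2 differences of -0.37 and 0.17 without a call.

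Of 17 tested bile acid carriers and sensors, 4 rose and none fell, against 6.46% of all genes in either direction. Abcb11, the canalicular bile salt export pump, read 10.98, 10.50, 10.46 and 10.76 in Tg Western livers, against 9.69, 9.87, 10.06 and 10.04 in WT chow livers. The groups did not overlap (log2 difference 0.76, SE 0.13, adjusted p = 0.0007592). Slc51b, a subunit of a basolateral bile acid exporter, was called higher, with a mean of 6.58 in Tg Western livers and 5.96 in WT chow livers. All 4 WT chow values lay below the filter level, so the size of that difference is not given. Slco1b2, an uptake carrier, and Atp8b1, a phospholipid flippase of the canalicular membrane, rose by 0.31 and 0.30, and lost their calls in 6 and 11 settings. The count of 4 dropped to 2 without WT chow replicate 3, Tg Western replicate 1 or Tg Western replicate 4. Without WT chow replicate 4, 2 members fell, and 1 fell without WT chow replicate 1 or Tg chow replicates 1 or 4. FXR (Nr1h4), LRH-1 (Nr5a2) and Hnf4a, nuclear receptors of this pathway, gave log2 differences of -0.27, 0.14 and -0.21, none called.

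Genes of cholesterol synthesis rose as a whole, where 6.46% of all genes were called higher. All 15 tested genes of the 20 listed were higher in Tg Western livers, each with 4 arrays above all 4 of WT chow, and the median log2 difference was 2.57 (5.93-fold), against -0.02 over all genes. In WT Western livers the same genes had a median of -0.56 against WT chow, with 10 called lower and 0 higher, where 9.12% of all genes were called lower and 10.3% higher. Against WT Western livers the Tg Western median was 3.14 and all 15 were called higher, against 6.75% of all genes higher and 8.3% lower in that contrast.

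Sqle, squalene epoxidase, read 11.17, 11.13, 10.94 and 11.35 in Tg Western livers, against 7.34, 7.83, 6.87 and 6.97 in WT chow livers. Its log2 difference was 3.89 (SE 0.16, 14.8-fold, adjusted p = 5.637e-11). In WT Western livers Sqle lay at the filter level, with a mean of 6.23, so the Tg Western livers stood 4.92 log2 units above them. Fdps, which makes farnesyl diphosphate, read 13.49, 13.36, 13.00 and 13.39 in Tg Western livers, against 9.98, 9.92, 9.23 and 9.12 in WT chow livers (log2 difference 3.75, SE 0.18, adjusted p = 1.722e-10). Hmgcs1, which forms HMG-CoA at the top of the pathway, read 14.64, 14.76, 14.62 and 14.76 in Tg Western livers, against 12.83, 12.26, 11.92 and 11.48 in WT chow livers. The gap between the groups exceeded the whole WT chow range for all of Sqle, Fdps and Hmgcs1.

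The middle and late steps followed. Cyp51, the lanosterol demethylase, differed by 3.31 (SE 0.15), Mvd, of the mevalonate steps, by 3.13 (SE 0.16), Msmo1, the sterol methyl oxidase, by 3.12 (SE 0.17) and Lss, lanosterol synthase, by 2.92 (SE 0.13). Mvd had a WT chow mean of 6.33, near the filter level, so its fold is compressed. Idi1, Nsdhl, Pmvk, Hsd17b7 and Dhcr7 differed by 2.76, 2.44, 2.05, 2.04 and 2.00, and Sc5d by 1.69. The smallest rises were those of Tm7sf2, a sterol reductase, at 0.78 and Ebp, a sterol isomerase, at 0.34 (adjusted p = 0.03452). Ebp was the exception in strength as well: it lost its call in 8 of the alternative settings, whereas the other 14 were called in each.

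Most of this rise was also seen in the Tg livers on chow, whose median for the list was 2.13 above WT chow, with 14 members higher and 0 lower, against 4.59% of all genes higher and 5.41% lower. Between Tg Western and Tg chow livers 6 members were higher and 0 lower, where 9.78% of all genes were called and 4.86% were called higher. The mean level of the list was 10.77 to 10.94 on the Tg Western arrays, 7.68 to 7.84 on the WT Western arrays, 10.15 to 10.43 on the Tg chow arrays and 8.25 to 8.63 on the WT chow arrays. Every Tg Western array thus lay above every Tg chow array, and every WT Western array below every WT chow array. Among the single genes, Fdps was called higher in Tg Western than in Tg chow livers (log2 difference 0.64, adjusted p = 0.02926), and Sqle was not (0.48, adjusted p = 0.07183).

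Of the 11 listed regulators and further targets of SREBP2, 7 were tested, and 4 rose while none fell (median log2 difference 0.84). The share of all genes was 6.46% in either direction. Srebf2, which encodes SREBP2, read 7.73, 8.31, 7.43 and 7.66 in Tg Western livers, against 7.38, 6.98, 6.70 and 6.71 in WT chow livers (log2 difference 0.84, adjusted p = 0.002435). Insig1, both a target and a brake of the pathway, differed by 1.45 (SE 0.10), Rdh11, a retinol dehydrogenase, by 2.14 (SE 0.11) and Stard4, a sterol carrier, by 2.06 (SE 0.20). Scap and Insig2 gave 0.20 and 0.56 without a call, and Lpin1 gave -0.58 without one. Without WT chow replicate 1, 1 member of the list was called lower. In WT Western livers 5 of the 7 fell and 0 rose against WT chow (median -0.41), against 9.12% and 10.3% of all genes. In Tg chow livers 5 rose and 0 fell (median 0.78), against 4.59% and 5.41% of all genes.

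Promoters of the risen genes are shown because this group moved together. RefSeq promoters of mouse build GRCm38.p6, 250 bases before to 50 after the start of transcription, were found for 16 of the 19 risen genes of both lists. They were searched on both strands for a sterol element core TCACCCC, its looser form TCACNCC, which includes the core, the CCAAT box CCAAT and the E-box CACGTG. None of the 5 largest rises with a promoter entry held the core, so the 3 largest are printed, with Hmgcs1 added after the search as the largest rise that held it. Capitals mark CCAAT boxes, read as ATTGG on the other strand, and matches to the looser sterol element. The windows are chr5:4104648-4104947 on the minus strand for Cyp51, chr8:122443373-122443672 on the minus strand for Mvd, chr8:64733529-64733828 on the minus strand for Msmo1 and chr13:119690101-119690400 on the plus strand for Hmgcs1, each written 5′ to 3′ along the gene.
Cyp51: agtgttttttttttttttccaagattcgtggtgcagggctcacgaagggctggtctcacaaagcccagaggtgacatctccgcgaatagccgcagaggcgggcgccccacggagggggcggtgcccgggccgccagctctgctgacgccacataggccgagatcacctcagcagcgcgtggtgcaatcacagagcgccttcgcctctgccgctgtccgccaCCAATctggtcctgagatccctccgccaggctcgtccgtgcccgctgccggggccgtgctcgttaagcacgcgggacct
Mvd: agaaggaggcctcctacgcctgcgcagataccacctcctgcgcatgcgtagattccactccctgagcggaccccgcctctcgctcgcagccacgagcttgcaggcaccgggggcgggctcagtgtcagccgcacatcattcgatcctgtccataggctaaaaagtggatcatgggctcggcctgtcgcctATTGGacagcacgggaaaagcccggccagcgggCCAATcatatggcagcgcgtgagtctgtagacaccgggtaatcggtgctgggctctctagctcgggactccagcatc
Msmo1: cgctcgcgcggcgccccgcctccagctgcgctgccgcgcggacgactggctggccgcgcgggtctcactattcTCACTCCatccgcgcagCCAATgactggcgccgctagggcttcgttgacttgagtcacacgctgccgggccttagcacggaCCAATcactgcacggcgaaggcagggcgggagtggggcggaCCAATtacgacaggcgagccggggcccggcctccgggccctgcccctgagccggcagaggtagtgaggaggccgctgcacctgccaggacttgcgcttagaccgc
Hmgcs1: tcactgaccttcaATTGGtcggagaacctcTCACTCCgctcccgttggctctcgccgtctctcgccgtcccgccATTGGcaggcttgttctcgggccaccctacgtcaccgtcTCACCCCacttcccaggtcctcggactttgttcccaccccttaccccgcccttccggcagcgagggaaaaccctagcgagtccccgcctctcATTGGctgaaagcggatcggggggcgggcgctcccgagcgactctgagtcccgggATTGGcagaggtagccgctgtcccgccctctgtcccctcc

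The core stood in 2 of the 20 promoters listed for these 16 genes (10%), those of Hmgcs1 and Srebf2, against 4.97% of all 32851 RefSeq promoters. The looser form stood in 4 of 20 (20%), against 15.6% of all. A CCAAT box stood in 16 of 20 (80.0%), at least 1 for each of the 16 genes, against 37.4% of all promoters, and an E-box in 5 of 20 (25%), against 7.15%. These matches describe the letters in the windows and show no binding.

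Transcripts of the canalicular sterol transporter rose. Abcg8 and Abcg5, the partners of the transporter that moves sterols into bile, were both higher: Abcg5 read 12.39, 11.97, 11.70 and 12.42 in Tg Western livers, against 10.86, 10.94, 11.43 and 10.82 in WT chow livers. No array overlapped between the groups (log2 difference 1.11, SE 0.17, adjusted p = 0.0003537), and Abcg8 differed by 1.23 (SE 0.23). In WT Western livers they stood 1.21 and 0.93 above WT chow, and in Tg chow livers 0.34 and 0.21. Npc2, a lysosomal sterol carrier, rose by a log2 difference of 0.42. The other 5 of 8 tested members of this list were not called, where 6.46% of all genes were called higher and 6.46% lower.

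Some genes of fatty acid synthesis rose and some genes of lipid droplets fell. Among 24 tested genes of fatty acid and triglyceride synthesis, 10 rose, 2 fell and 12 were not called (median 0.36), against 6.46% of all genes in either direction. Aacs, which activates acetoacetate for lipid synthesis, read 10.94, 10.69, 9.81 and 10.98 in Tg Western livers, against 8.54, 8.80, 8.32 and 7.68 in WT chow livers (log2 difference 2.27, SE 0.25, adjusted p = 1.067e-05). Acss2 and Acly, which supply acetyl-CoA, differed by 1.04 and 1.00, Fads2, a desaturase, by 0.97 and Elovl6, an elongase, by 0.93. Against WT chow, Acss2, Acly and Fads2 gave -0.16, -0.27 and 0.16 in WT Western livers, none called, and Elovl6 gave 0.52. Mogat1, which adds an acyl chain to monoacylglycerol, fell by 1.26 on the log2 scale to a mean of 6.49 in Tg Western livers, near the filter level, against 7.75 in WT chow livers.

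Of 16 tested lipid droplet and storage genes, none rose, 9 fell and 7 were not called (median -0.35), against 6.46% of all genes in either direction. Without WT chow replicate 4 or Tg chow replicates 2 or 4, 1 member rose. Cidea, a protein of droplet fusion, read 6.27, 6.00, 6.22 and 6.08 in Tg Western livers, against 11.27, 10.15, 7.54 and 7.89 in WT chow livers. The Tg Western values sat around the filter level, while the WT chow values spread over more than 3 log2 units, with replicates 1 and 2 high. The log2 difference was -3.07 (SE 0.55, adjusted p = 0.001465). Plin4, a droplet coat protein, read 6.80, 6.68, 6.90 and 6.75 in Tg Western livers, against 10.03, 9.55, 9.20 and 8.43 in WT chow livers (log2 difference -2.52, SE 0.24, adjusted p = 2.787e-06). Cidec, Fitm1, Pparg and Vldlr fell by 1.72, 1.51, 1.24 and 0.93. Pparg, a nuclear receptor of fat storage, and Vldlr, a lipoprotein receptor, had Tg Western means of 6.28 and 6.07, at or under the filter level, so their folds are compressed. None of Cidea, Plin4 and Cidec was called in WT Western livers against WT chow (log2 differences 0.15, 0.18 and 0.29), and all were lower in Tg Western than in WT Western livers (adjusted p = 0.0007361, 9.978e-07 and 4.019e-05). In Tg chow livers 6 of the 16 list members also fell and 1 rose against WT chow, against 5.41% and 4.59% of all genes. Between Tg Western and Tg chow livers 3 were lower and 0 higher, against 4.92% and 4.86% of all genes.

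Fatty acid oxidation and PPARA targets held 5 members that fell and 1 that rose of 21 tested (median -0.20). For this list and the 2 below, 6.46% of all genes were called higher and 6.46% lower. Cpt2 and Slc25a20, of carnitine transport, and Acadm, an acyl-CoA dehydrogenase, fell by 0.61, 0.46 and 0.48, and Cyp4a14 and Acaa1a by 0.71 and 0.30. Fgf21, a hormone secreted by the fasting liver, rose: it read 9.17, 9.99, 11.27 and 9.77 in Tg Western livers, against 8.56, 8.96, 8.04 and 8.82 in WT chow livers (log2 difference 1.46, SE 0.40, adjusted p = 0.02338). It was the member that rose, and the count of members that rose was 2 without WT chow replicate 2 or Tg chow replicate 2, and 0 without WT chow replicate 3, Tg Western replicate 2 or Tg Western replicate 3. In WT Western livers 7 of the 21 fell and 0 rose against WT chow (median -0.25), against 9.12% and 10.3% of all genes. In Tg chow livers 2 fell and 0 rose (median 0.23), against 5.41% and 4.59% of all genes. Among 14 apolipoproteins and assembly genes, Apoa4, Apoc2 and Apom were called higher in Tg Western than in WT chow livers (log2 differences 1.21, 0.58 and 1.34). Apom, a carrier of sphingosine 1-phosphate in HDL, overlapped between the groups, with WT chow replicate 1 at 8.53 and the other WT chow livers at 10.52 to 11.53, and lost its call in 16 settings. Of 14 genes of glucose metabolism 1 was called higher, near the share of all genes. It was Irs2, an insulin receptor substrate, at 0.71, and 2 genes of the list rose without WT chow replicate 1 or Tg Western replicate 3.

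**Figure D4:**
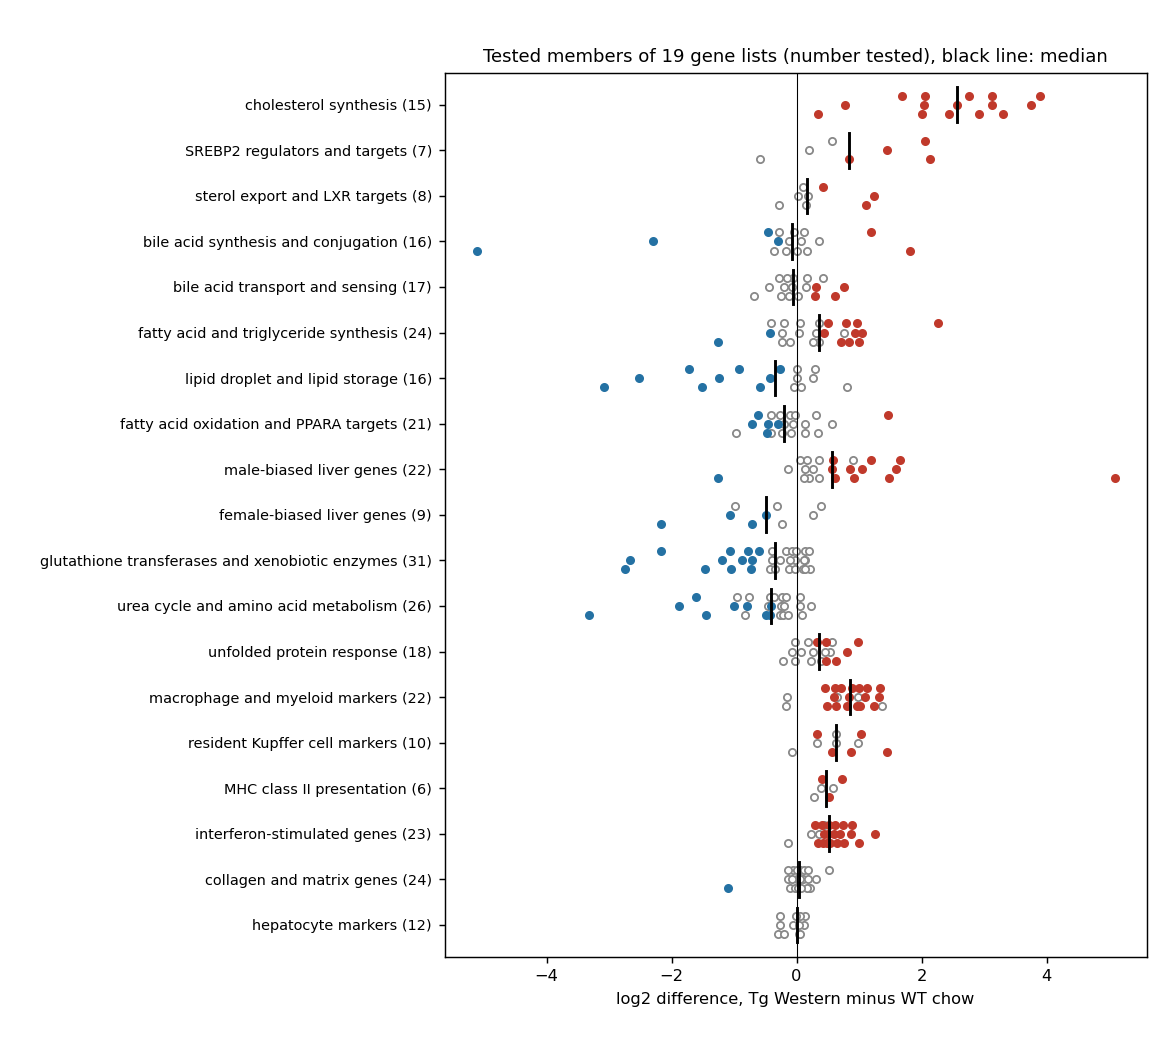
Log2 difference between Tg Western and WT chow livers for every tested member of 19 gene lists, with the number tested in brackets. Red points were called higher, blue points lower and open points were not called, and the black line is the list's median: 2.57 for cholesterol synthesis, -0.35 for lipid droplets and 0.04 for collagen and matrix.

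Hsd3b5, a steroid dehydrogenase of the male mouse liver, had the largest rise of all genes. It read 11.59, 11.58, 11.00 and 11.47 in Tg Western livers, against 6.02, 6.53, 6.57 and 6.17 in WT chow livers. The WT chow values lay around the filter level, so the difference of 5.09 (SE 0.21, 34.1-fold, adjusted p = 5.637e-11) is compressed. Tg chow livers stood between, with a mean of 8.21, and WT Western livers at 6.14. The Tg Western livers were above the Tg chow livers by 3.20 (adjusted p = 2.096e-07) and above the WT Western livers by 5.28 (adjusted p = 7.54e-12).

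Of 22 tested genes listed as male-biased in mouse liver, 11 rose and 1 fell (median 0.57). The list also holds the growth hormone pathway genes Ghr, Igf1 and Socs2. All mice were male, so sex bias itself was not tested. Among all genes, 6.46% were called higher and 6.46% lower. Socs2, a brake on growth hormone signalling, differed by 1.66, Cyp4a12b, an arachidonic acid hydroxylase, by 1.59, and Mup21, a major urinary protein, by 1.48. Probes of near-identical relatives, as in the Mup, Cyp4a12 and Serpina1 families, can share signal. Serpina1e, a serine protease inhibitor, was the member that fell, with overlapping groups: 12.00, 13.32, 13.67 and 11.69 in Tg Western livers, against 13.19, 13.76, 14.44 and 14.32 in WT chow livers (adjusted p = 0.03452). In Tg chow livers 9 members of the list rose and 1 fell against WT chow (median 0.60), against 4.59% and 5.41% of all genes. Between Tg Western and Tg chow livers 3 were higher and 1 lower, against 4.86% and 4.92% of all genes. In WT Western livers 1 member rose and 7 fell, among them Serpina1e, by 3.60, against 10.3% and 9.12% of all genes. For Tg Western against WT chow, the count that rose was 7 without WT chow replicate 1 and 7 without Tg Western replicate 2. There Serpina1e lost its call without WT chow replicates 2, 3 or 4 or Tg Western replicates 1 or 4. Of 9 tested genes listed as female-biased, none rose and 4 fell, led by Cyp2a5 and Cyp2b10 (median -0.49). With no filter on low signal, the median of this list was 0.0067. Cyp2b9 and Cyp2b13 of the same list gave 0.39 and 0.26 without a call. The lists share genes: Cyp2a5 and Cyp2b10 are counted again among the xenobiotic enzymes below. Cyp4a14, which also fell, was counted among the PPARA targets above.

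Glutathione transferases and other xenobiotic enzymes fell in part. Of 31 tested, none rose and 12 fell (median -0.34), against 6.46% of all genes in either direction. Gsta1 read 8.20, 7.10, 6.85 and 7.48 in Tg Western livers, against 10.82, 8.81, 10.67 and 10.35 in WT chow livers, and Gsta2 fell alike. Both are alpha class glutathione transferases, near-identical to each other, so their probes may share signal. Their log2 differences were -2.75 (SE 0.39) and -2.67 (SE 0.31), next to 0.34 and 0.08 in WT Western livers and -3.19 and -2.98 in Tg chow livers. Gstm2 and Gstm1, of the mu class, fell by 1.47 and 1.19. In Tg chow livers 18 of the 31 fell and 1 rose against WT chow (median -0.53), against 5.41% and 4.59% of all genes. Between Tg Western and Tg chow livers 6 were higher and 5 lower, against 4.86% and 4.92% of all genes. Cyp2a5, the coumarin hydroxylase, read 10.10, 9.79, 8.90 and 11.08 in Tg Western livers, against 11.85, 11.91, 12.47 and 12.34 in WT chow livers (log2 difference -2.17, adjusted p = 0.0002559). Cyp2b10, a drug-induced cytochrome, fell by 1.07 to below the filter level. Metallothioneins Mt1 and Mt2, which bind zinc and copper, fell by 1.58 and 1.19, and with Gpx4, at -0.34, they were the 3 called of 16 tested genes of the NRF2 and metal response.

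Csad fell the most among genes of amino acid metabolism. This gene, cysteine sulfinic acid decarboxylase, the enzyme that makes hypotaurine, read 7.56, 7.88, 8.61 and 7.57 in Tg Western livers, against 11.01, 11.78, 11.02 and 11.13 in WT chow livers. Its log2 difference was -3.33 (SE 0.28, adjusted p = 5.647e-07), beside -1.62 in WT Western and -0.97 in Tg chow livers. The Tg Western livers were lower than both (adjusted p = 0.0005295 and 0.0001234). Of 26 tested genes of the urea cycle and amino acid metabolism, none rose, 9 fell and 17 were not called (median -0.41), against 6.46% of all genes in either direction. Nnmt, which methylates nicotinamide, fell by 1.88, Bhmt, a homocysteine methyltransferase, by 1.61 and Etnppl, a phospholyase, by 1.44. Asl and Ass1, of the urea cycle, fell by 0.99 and 0.79. Bhmt overlapped between the groups and lost its call in 8 settings. The count of members that fell was 5 without Tg Western replicate 1 and 15 without Tg chow replicate 4, and without WT chow replicate 1 there was 1 that rose. In WT Western livers 10 of the 26 fell and 0 rose against WT chow (median -0.38), against 9.12% and 10.3% of all genes. In Tg chow livers 2 fell and 0 rose (median -0.12), against 5.41% and 4.59% of all genes. Between Tg Western and WT Western livers 3 were higher and 1 lower (median -0.01), against 6.75% and 8.3% of all genes.

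Several of the largest changes lay outside these groups. Nfe2, a transcription factor best known in blood cells, read 9.25, 8.88, 7.85 and 8.22 in Tg Western livers, against 6.08, 6.12, 6.10 and 6.19 in WT chow livers, where it did not exceed the filter level. Its means were 6.15 in WT Western livers and 6.99 in Tg chow livers, so it passed the filter through the Tg groups, and no exact fold is given. Red blood cell genes moved the other way: Hba-a1 (alpha globin) fell by 1.21 and Alas2, of haem synthesis, by 0.78, and Slc4a1 gave -0.33 without a call. Serpina12, the adipokine vaspin, read 10.92, 11.28, 11.02 and 10.92 in Tg Western livers, against 9.81, 9.74, 7.39 and 7.68 in WT chow livers, where replicates 3 and 4 were low. It differed by 2.38 (SE 0.40) and by 1.98 in WT Western livers. Lgals1, galectin-1, read 8.09, 7.79, 7.66 and 7.79 in Tg Western livers, against 10.88, 9.63, 9.94 and 9.84 in WT chow livers (log2 difference -2.24, SE 0.20), while it rose by 0.74 in WT Western livers. Clstn3, a calsyntenin, Noct, a circadian phosphatase, Fam25c and Car14, a carbonic anhydrase, fell by 2.11, 2.09, 1.95 and 1.87. Ccnd1, cyclin D1, read 10.08, 9.87, 9.64 and 9.39 in Tg Western livers, against 8.01, 8.26, 8.12 and 8.40 in WT chow livers, a difference of 1.55 (adjusted p = 8.887e-05) beside 1.26 in WT Western livers and -0.39 in Tg chow livers. Of 12 tested genes of the cell cycle, 1 rose (Ccnd1) and 1 fell (Cdkn1a, -0.76, adjusted p = 0.03978, lost in 9 settings), near the share of 6.46% of all genes in either direction.

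Genes of the unfolded protein response rose in part: 6 of 18 tested were higher and none lower (median 0.35). For this list and the 2 below, 6.46% of all genes were called higher and 6.46% lower. In WT Western livers none of the 18 was called. Ero1b, an oxidase of the endoplasmic reticulum, differed by 0.99, Xbp1 and Atf4, transcription factors of the response, by 0.81 and 0.62, and Syvn1, Pdia6 and Pdia4 by 0.47, 0.48 and 0.32. With arrays scaled to a common median, 3 of the 18 rose. Of 24 acute phase and iron genes 4 rose, led by Orm1, orosomucoid, at 0.64, and the count was 2 without Tg Western replicate 2. Of 13 clock genes, Ciart and Per1, repressors of the clock, fell by 1.08 and 0.70, and 1 clock gene fell without WT chow replicate 3 or Tg Western replicates 1 or 2.

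Macrophage markers were higher in Tg Western livers. Of 22 tested macrophage and myeloid markers, 17 rose and none fell (median 0.86), against 6.46% of all genes in either direction. Laptm5, a lysosomal protein of blood cells, read 10.45, 10.93, 10.21 and 10.18 in Tg Western livers, against 8.89, 9.54, 9.12 and 9.74 in WT chow livers (log2 difference 1.12, SE 0.18, adjusted p = 0.0004995). C1qb, of the complement component C1q, differed by 1.34, Cd14, an endotoxin co-receptor, by 1.10 and Adgre1, the F4/80 antigen, by 1.01. The mean level of the list was 8.13 to 8.88 on the Tg Western arrays, 8.72 to 8.98 on the WT Western arrays, 7.94 to 8.57 on the Tg chow arrays and 7.22 to 8.05 on the WT chow arrays. Tg Western replicate 2 was the highest of its group and WT chow replicate 1 the lowest of its own. The count that rose was 11 without Tg Western replicate 2 and 11 without WT chow replicate 3. Taken over replicates 1 and 2 alone, the list had a median of 1.19, and over 3 and 4 alone a median of 0.51. The scanner's median signal was 79.3 and 76.2 on Tg Western arrays 1 and 2 and 70.8 and 70.3 on arrays 3 and 4, against 86.6 and 83.7 on WT chow arrays 1 and 2 and 73.3 and 74.3 on arrays 3 and 4. With this split of the replicates as a term in the fit, 17 members rose. The split is balanced over the groups, so the term changes the residual spread and leaves the group difference as it was. It cannot address a difference that varies between the replicate pairs.

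Markers of Kupffer cells, the resident macrophages of the liver, showed the same direction. Of 10 tested, 5 were higher and none lower, against 6.46% of all genes in either direction. Their median was 0.63, with 0.87 over replicates 1 and 2 alone and 0.37 over 3 and 4 alone. In Tg chow livers 4 of the 10 rose and 0 fell against WT chow (median 0.51), against 4.59% and 5.41% of all genes. In WT Western livers 5 rose and 1 fell (median 0.27), against 10.3% and 9.12% of all genes. Between Tg Western and Tg chow livers 1 was higher and 0 lower, against 4.86% and 4.92% of all genes. Clec4f, a lectin that defines these cells in mice, read 8.30, 8.52, 8.18 and 8.10 in Tg Western livers, against 6.96, 7.55, 7.32 and 7.79 in WT chow livers (log2 difference 0.87, adjusted p = 0.001634), beside 0.91 in WT Western livers. Vsig4, a complement receptor, and Folr2, a folate receptor, differed by 1.45 and 1.03. Il1b, interleukin 1 beta, read 8.09, 8.17, 7.77 and 7.64 in Tg Western livers, against 6.16, 6.34, 6.31 and 6.27 in WT chow livers, where it lay around the filter level. It differed by 1.65 (adjusted p = 0.001844), and 5 other chemokines of the 18 cytokine genes tested rose by 0.40 to 0.65. That count of 6 was 2 without WT chow replicates 1, 2 or 3 or Tg Western replicate 1, and 3 without Tg Western replicates 2 or 4. The median of that list was 0.53 over replicates 1 and 2 alone and 0.20 over 3 and 4 alone.

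Interferon-stimulated genes rose: 19 of 23 tested were higher and none lower in Tg Western livers against WT chow (median 0.52). The share of all genes was 6.46% in either direction. In WT Western livers 9 were higher against WT chow (median 0.28), where 10.3% of all genes were. Between Tg Western and WT Western livers directly, 11 were higher and 4 lower (median 0.30), against 6.75% and 8.3% of all genes. Ifi47, an interferon-induced GTPase, read 9.45, 10.05, 9.24 and 9.16 in Tg Western livers, against 8.06, 7.92, 8.23 and 8.65 in WT chow livers (log2 difference 1.26, SE 0.19, adjusted p = 0.0003488), and it was 0.74 above WT Western livers (adjusted p = 0.0137). Ifit3, Gbp3, Usp18, Isg15 and Irgm2 differed from WT chow by 0.99, 0.89, 0.88, 0.76 and 0.75. The mean level of the list was 8.38 to 8.61 on the Tg Western arrays, 8.16 to 8.44 on the WT Western arrays, 7.78 to 7.92 on the Tg chow arrays and 7.80 to 8.14 on the WT chow arrays, so Tg Western arrays lay above all chow arrays of either genotype. Lymphocyte markers were barely above background: of 5 tested, none was called, and Cd79b averaged 6.42 in Tg Western livers and 6.36 in WT chow livers. Their part in this rise was not tested.

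**Figure D5:**
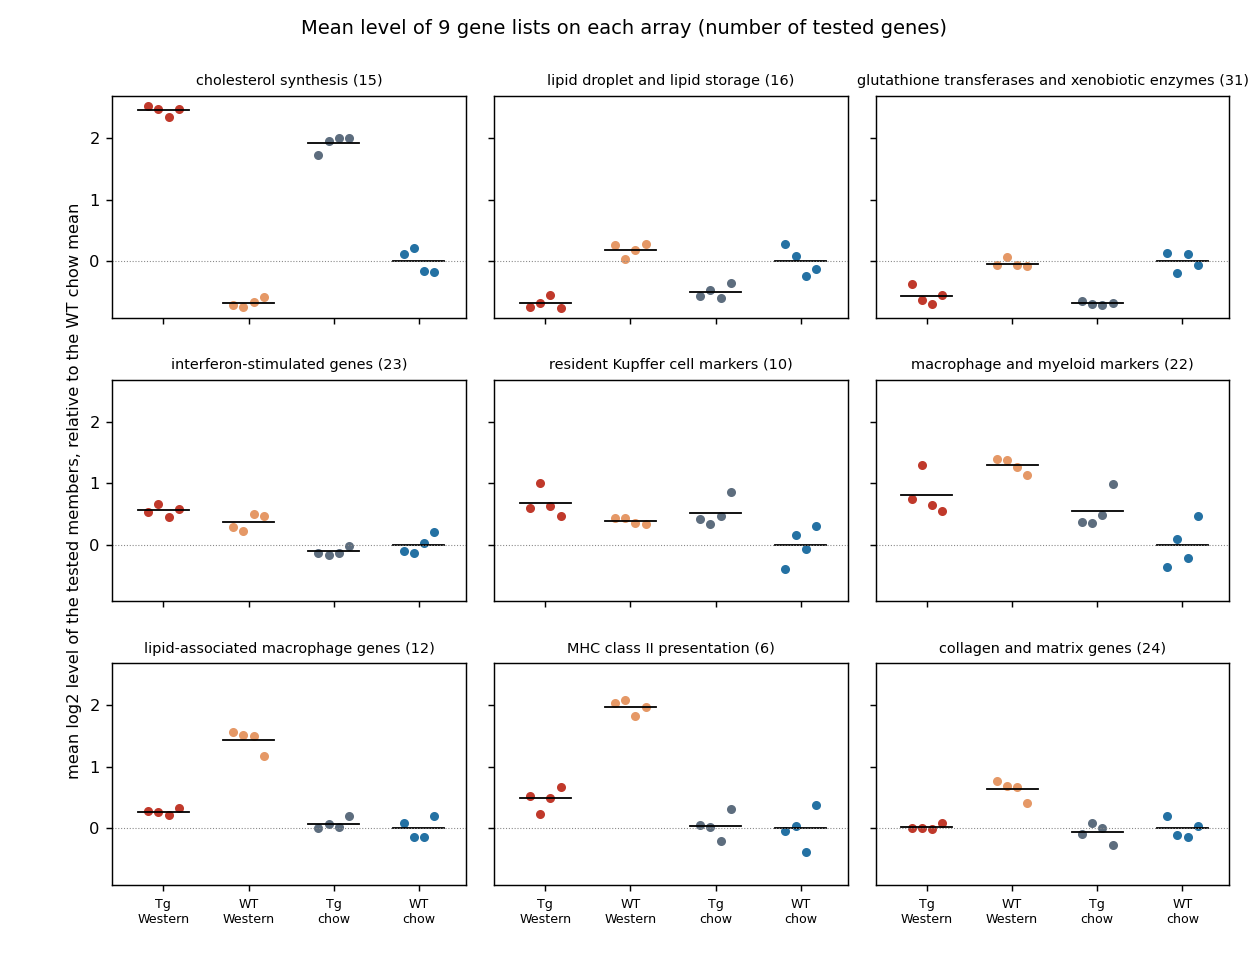
Mean log2 level of the tested members of 9 gene lists on each array, relative to the WT chow mean (4 arrays per group; black bar, group mean). MHC class II, lipid-associated macrophage and collagen lists are highest in WT Western livers. In Tg Western livers their means lie 0.49, 0.275 and 0.02 above WT chow. Cholesterol synthesis is high in both Tg groups.

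The 10 genes that rose most in WT livers on the diet had lower means in the Tg livers on the diet, between those of WT Western and WT chow livers. They were chosen for their change in WT Western livers, and both contrasts share the WT chow arrays, so their place in Tg Western livers is given as values. Lpl, lipoprotein lipase, averaged 9.30 in Tg Western, 11.59 in WT Western and 8.49 in WT chow livers. Lgals3, galectin-3, averaged 9.45, Lcn2, lipocalin 2, 9.70 and Lyz2, a lysozyme, 9.45 in Tg Western livers, and 11.28, 11.27 and 10.69 in WT Western livers. Their WT chow means were 8.62, 8.66 and 8.08. Mmp12, macrophage elastase, averaged 6.92 in Tg Western, 8.89 in WT Western and 6.30 in WT chow livers, the last near the filter level. Ubd, a ubiquitin-like protein, averaged 7.21 in Tg Western, 9.17 in WT Western and 6.85 in WT chow livers. Fos, an immediate early gene, was the one of these 10 closest to the WT Western level, with 8.45 in Tg Western, 9.0 in WT Western and 6.68 in WT chow livers, and Lyz1, a relative of Lyz2 whose probe may share its signal, averaged 11.82, 12.76 and 10.50.

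Of the largest falls in WT Western livers, Slco2a1, a prostaglandin carrier, averaged 8.97 in Tg Western, 7.50 in WT Western and 9.11 in WT chow livers. Pck1, of gluconeogenesis, averaged 10.09, 8.81 and 10.39, and Elovl3, an elongase, 8.45, 6.81 and 8.39 in the same order of groups. The intervals of their differences between Tg Western and WT chow livers were -0.45 to 0.17, -0.84 to 0.25 and -0.57 to 0.69 (95%, log2). C8b, a complement component, went beyond WT chow: it averaged 11.19 in Tg Western, 8.72 in WT Western and 10.33 in WT chow livers. Nnmt, Etnppl and Hbb-bt, a beta globin, were low in both diet groups, with means of 10.12, 8.22 and 9.09 in Tg Western, 10.15, 7.75 and 8.84 in WT Western and 12.00, 9.67 and 10.73 in WT chow livers.

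MHC class II genes present antigen. Of the 6 tested, Cd74 and H2-Ab1 are among the 10 genes above chosen for their rise in WT Western livers, so the list partly restates that choice. Cd74, the invariant chain, read 10.08, 9.85, 10.05 and 10.33 in Tg Western livers, against 9.26, 9.36, 8.84 and 9.92 in WT chow livers. The groups overlapped, since WT chow replicate 4 lay above 1 Tg Western liver, and the log2 difference was 0.73 (SE 0.18, adjusted p = 0.01228). Among all genes, 6.46% were called higher and 16.4% had groups that did not overlap. Of 6 tested genes 3 rose, Cd74, H2-Eb1 and H2-DMa, and 0 of the 6 had groups that did not overlap. That count was 1 without WT chow replicates 1, 2 or 3 or Tg Western replicates 1 or 4, and 5 without WT chow replicate 4. In WT Western livers all 6 rose (median 2.04), against 10.3% of all genes. All 6 were lower in Tg Western than in WT Western livers (median -1.59), against 8.3% of all genes. H2-Ab1, a class II beta chain, averaged 9.01 in Tg Western, 10.79 in WT Western and 8.43 in WT chow livers.

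Genes of lipid-associated macrophages, a state seen in fatty liver, include Lpl, Lgals3 and Mmp12 of those same 10. Of 12 tested, 4 rose and 1 fell against WT chow (median 0.26), where 6.46% of all genes were higher and 6.46% lower. In WT Western livers 10 were higher than in WT chow (median 1.23), against 10.3% of all genes. In Tg Western livers 10 were lower than in WT Western livers, against 8.3% of all genes. Cd9, Lgals3, Mmp12 and Capg rose by 0.73, 0.84, 0.62 and 0.30, and Anxa5, an annexin, fell by 0.58, while it rose by 0.83 in WT Western livers. The count that rose was 1 without WT chow replicate 3 and 2 without WT chow replicate 2 or Tg Western replicate 2. Collagen and matrix genes gave 1 call of 24 tested, Ccn2, a matricellular factor, at -1.09 (median 0.04). Of the 24, 20 rose in WT Western livers (median 0.67), against 10.3% of all genes, and 18 were lower in Tg Western than in WT Western livers (median -0.68), against 8.3% of all genes. The call of Ccn2 was lost without WT chow replicate 4 or Tg Western replicates 1 or 3.

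Counts for markers of other liver cell types, respiratory chain and lysosome stand against 6.46% of all genes called higher and 6.46% called lower. Among stellate cell markers 2 of 10 rose, Rgs5 and Ngfr, at 0.42 and 0.35, with a list median of 0.06. Neither was called without WT chow replicate 2 or Tg Western replicates 1 or 2, and 1 of them was left without WT chow replicate 3, Tg Western replicate 4, Tg chow replicate 2 or any 1 WT Western replicate. Among endothelial markers 2 of 16 rose, Clec4g and Tek, at 0.90 and 0.55. Clec4g, a sinusoidal lectin, was low in WT chow replicate 1 (9.72, against 10.54 to 11.22 in the other WT chow livers), while the Tg Western livers ranged from 11.43 to 11.59. The endothelial count was 5 without WT chow replicate 2 and 1 without WT chow replicate 3. Aqp1, a water channel, was the 1 of 7 biliary markers that rose, at 0.76, with WT chow replicate 1 again lowest at 8.62. No biliary marker was called without any 1 of the Tg Western replicates, and 2 were without WT chow replicate 4. None of 4 neutrophil markers was called, and S100a8 averaged 7.67 in Tg Western livers and 7.38 in WT chow livers. Of 26 respiratory chain subunits 3 fell, Uqcrc1, Atp5c1 and Cox4i1, at -0.34, -0.29 and -0.25, and 13 of the 26 fell when arrays were scaled to a common median, where 938 of all 7783 genes fell. That count was 1 without WT chow replicate 3 and 6 without Tg Western replicate 3. Lysosomal genes gave 4 rises and 1 fall (Gaa) of 24 tested, led by Lgmn, a protease, at 0.94 and Ctsc, cathepsin C, at 0.80. The call of Gaa was lost without WT chow replicates 2, 3 or 4, WT Western replicates 2 or 3 or Tg Western replicates 1, 2 or 4.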

How the data were processed

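Liver RNA of 16 mice was hybridised to 16 single-colour Illumina bead arrays, 4 per group. The main values are the authors' deposited log2 signals. How they were normalized is not given in the sources. They lay within 0.0675 log2 units of quantile-normalized log2 scanner signals (median 0.00308), with no order breaks, so no background appears to have been taken off. The scanner tables, deposited by the authors as linear intensity, were used for depth checks and alternatives.

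Of 25697 rows, 23978 were named through the platform annotation. Rows in the upper 50% by their mean signal were kept, with the brightest row for each gene, which gave 7783 genes, and 42 symbols with rows identical to another symbol's were left out. All 16 arrays entered 1 fit of 4 group means (limma 3.58.1 in R 4.3.3, 12 residual degrees of freedom), with Benjamini-Hochberg adjustment over all genes tested and calls at an adjusted p under 0.05. The fit was tested on simulated data. Arrays carry no read counts, so their number limits the precision.

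The comparison and the 36 gene lists were chosen with earlier results of these data known. Named genes were Cyp7a1, the 15 largest rises and 15 largest falls among called genes whose groups did not overlap, and the 10 largest in each direction of WT Western against WT chow. Further names were members of the cholesterol, SREBP2 and bile acid lists, up to 6 called members of each other list, and the 3 brightest and the defining markers of other cell types. Alternatives changed the background correction, scaling, filter, choice of row, arrays in the fit and replicate terms, and left out each array in turn. Deviations of same-numbered Tg Western and WT chow arrays correlated at 0.186 for replicate 1, and at -0.059, -0.011 and -0.046 for replicates 2, 3 and 4. No pairing was used in the reported fit.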

Additional observations from a re-analysis of the deposited data

Results flagged for a closer look

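Among 378 groups of 4 values examined, 16 held 1 array set far apart from the other 3 by Dixon's test, 10 in Tg Western and 6 in WT chow livers. Chance alone flags about 5% of such groups. No cause was tested.

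In Tg Western livers, replicate 4 read 7.36 for Ciart, against 6.19 to 6.24 in the other 3, and 8.43 for Irs2, against 8.10 to 8.14. The mean of the clock list was 8.63 in that replicate and 8.16 to 8.22 in the others. Replicate 1 read 12.01 for Ebp and 9.39 for Nsdhl, above 11.75 to 11.80 and 9.13 to 9.17. Replicate 2 read 7.98 for Etnppl, below 8.28 to 8.32, and 6.55 for Slc4a1, above 6.19 to 6.21. Its lymphocyte marker mean was 6.40, below 6.54 to 6.56. Replicate 3 read 11.00 for Cyp51, below 11.29 to 11.33, and its mean for fatty acid oxidation was 10.76, above 10.39 to 10.41.

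In WT chow livers, replicate 4 read 10.16 for Ccn2 and 9.43 for Lpl, above 9.15 to 9.28 and 8.05 to 8.26. Replicate 2 read 11.78 for Csad, above 11.01 to 11.13, and 6.92 for Mt2, below 7.80 to 7.93. Replicate 1 read 14.05 for Cyp8b1 and 8.52 for Mogat1, above 13.94 to 13.96 and 7.47 to 7.52.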

How the results depend on the processing

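Of the 144 named genes called in Tg Western against WT chow livers, 97 were called under every alternative run that tested them. The call was lost in at least 1 run for 47, and 0 changed sign. Some of the 144, such as Nfe2, Srebf2 and Pparg, were tested in 23 settings and others in 24. The count of genes lower was 938 with median scaling, where the median of all genes was -0.07, and 503 in the reported fit. Leaving out 1 array at a time gave 665 to 1123 genes called, 338 to 559 higher and 317 to 564 lower. The other settings gave 717 called with only the 8 arrays compared, 719 with the upper 25% of rows (3984 genes tested), 896 with no filter (16551 tested), 1009 with normexp and 1090 with replicates 1 and 2 against 3 and 4 as a term. The difference in distance between Tg Western and WT Western livers ran from -0.0108 to 0.017 over the arrays left out, and was negative without WT Western replicate 4 (-0.0108) and without WT chow replicate 1 (-0.0091). The cause was not tested.

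Deviations of same-numbered Tg Western and WT chow arrays correlated at 0.186, -0.059, -0.011 and -0.046. The deposited values lay close to quantile-normalized signals, so a uniform shift in intensity shared by same-numbered arrays would not show in them. Shared handling of same-numbered arrays was not tested. With the replicate number as a block, 1026 genes were called, 512 higher and 514 lower.

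Limits are few arrays per group, compressed folds near the filter level, the unstated normalization and batch, and genotype and diet that both differ. The balance of rises and falls moved with the scaling, and the part of the lower mean scanner signal of the Tg Western arrays was not tested.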
